A study of Homo sapiens with 6 samples.

Results

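Autophagy and lysosome genes were followed in CAL27 cells, an established human line of tongue squamous carcinoma origin, as a list of 44 genes chosen by symbol out of the 58243 genes of the deposited tables. All 44 symbols were found in the annotation. The 2 groups were cells treated for 48 h with 30 mM metformin, a biguanide that lowers blood glucose, and cells treated for the same time with the vehicle PBS, with 3 libraries each. All were cultured in DMEM with 10% fetal bovine serum and 1% penicillin and streptomycin, and mRNA libraries were made from total RNA. Whether the libraries of a group came from separate cultures is not in the labels. A p-value therefore sets the group difference against a scatter between libraries that may be technical only, and may not hold for new cultures. Levels are FPKM (fragments mapped to a gene, divided by transcript length and by the fragments of the whole library), given as mean ± SD (n = 3). Folds are ratios of group means. Each log2 change is the metformin mean less the PBS mean of log2(FPKM + 1), a scale on which changes of weakly expressed genes come out too small.

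Autophagy delivers cytoplasm to the lysosome. The ULK1 kinase complex and the BECN1 lipid kinase complex start a membrane, the phagophore, which grows with lipid from ATG2 proteins and is coated with lipid-bound proteins of the LC3 and GABARAP family. Receptors such as SQSTM1 (p62) bind ubiquitin-tagged cargo on one side and LC3 on the other, and are themselves degraded with it. The transcription factors TFEB, TFE3 and MITF bind E-box sequences of the CLEAR type before many lysosomal and autophagy genes and are held in the cytoplasm by active mTORC1. Transcript levels do not measure the flow of cargo through this pathway.

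The promoters of WIPI1, MAP1LC3B and SQSTM1 are shown first, because these 3 members had the largest log2 changes. Each sequence runs 5′ to 3′ on the gene's strand from 250 bases before to 50 after a RefSeq start (build GRCh38.p14), and for SQSTM1 the most downstream of 3 listed starts is printed.
WIPI1 (chr17:68457447-68457746, minus strand): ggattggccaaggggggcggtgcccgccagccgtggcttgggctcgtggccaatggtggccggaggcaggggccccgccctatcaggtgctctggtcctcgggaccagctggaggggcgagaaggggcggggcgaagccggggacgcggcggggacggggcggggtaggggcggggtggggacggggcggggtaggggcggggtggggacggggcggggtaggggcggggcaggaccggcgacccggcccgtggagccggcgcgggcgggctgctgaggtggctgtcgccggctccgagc
MAP1LC3B (chr16:87392086-87392385, plus strand): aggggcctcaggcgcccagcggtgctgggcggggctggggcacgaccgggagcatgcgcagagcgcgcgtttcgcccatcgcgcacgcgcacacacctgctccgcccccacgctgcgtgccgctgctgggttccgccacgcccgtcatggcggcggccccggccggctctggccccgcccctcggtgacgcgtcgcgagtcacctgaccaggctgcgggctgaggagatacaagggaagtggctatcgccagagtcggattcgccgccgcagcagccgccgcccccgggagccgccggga
SQSTM1 (chr5:179820655-179820954, plus strand): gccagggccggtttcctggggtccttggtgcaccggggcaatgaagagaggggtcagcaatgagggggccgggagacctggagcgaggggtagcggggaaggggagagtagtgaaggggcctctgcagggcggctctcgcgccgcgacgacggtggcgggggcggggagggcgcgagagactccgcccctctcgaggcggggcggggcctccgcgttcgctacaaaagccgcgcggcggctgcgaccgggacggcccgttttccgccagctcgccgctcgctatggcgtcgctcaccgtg
The promoters below belong to members that hold the 8 central bases of the CLEAR element, TCACGTGA. Capitals mark each E-box CACGTG, together with its flanks where they make up TCACGTGA or the full 10-base element.
GAA (chr17:80101331-80101630, plus strand): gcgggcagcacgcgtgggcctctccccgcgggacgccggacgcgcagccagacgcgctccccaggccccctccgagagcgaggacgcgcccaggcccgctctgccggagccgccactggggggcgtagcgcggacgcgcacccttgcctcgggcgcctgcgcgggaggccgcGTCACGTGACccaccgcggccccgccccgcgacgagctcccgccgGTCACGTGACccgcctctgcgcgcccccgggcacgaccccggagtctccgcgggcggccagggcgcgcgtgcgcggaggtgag
MCOLN1 (chr19:7522374-7522673, plus strand): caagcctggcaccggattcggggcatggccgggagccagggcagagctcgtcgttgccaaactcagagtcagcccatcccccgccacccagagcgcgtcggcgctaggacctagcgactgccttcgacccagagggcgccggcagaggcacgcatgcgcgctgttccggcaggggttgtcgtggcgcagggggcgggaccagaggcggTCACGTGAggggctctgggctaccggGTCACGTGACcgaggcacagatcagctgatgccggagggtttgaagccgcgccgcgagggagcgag
LAMP1 (chr13:113296989-113297288, plus strand): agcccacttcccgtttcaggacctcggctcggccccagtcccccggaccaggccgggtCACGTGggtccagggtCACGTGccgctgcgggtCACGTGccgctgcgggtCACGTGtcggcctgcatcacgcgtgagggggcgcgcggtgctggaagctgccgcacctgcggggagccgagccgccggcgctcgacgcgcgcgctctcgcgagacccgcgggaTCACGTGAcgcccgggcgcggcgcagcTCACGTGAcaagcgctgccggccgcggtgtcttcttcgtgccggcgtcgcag
ATP6V0D1 (chr16:67481108-67481407, minus strand): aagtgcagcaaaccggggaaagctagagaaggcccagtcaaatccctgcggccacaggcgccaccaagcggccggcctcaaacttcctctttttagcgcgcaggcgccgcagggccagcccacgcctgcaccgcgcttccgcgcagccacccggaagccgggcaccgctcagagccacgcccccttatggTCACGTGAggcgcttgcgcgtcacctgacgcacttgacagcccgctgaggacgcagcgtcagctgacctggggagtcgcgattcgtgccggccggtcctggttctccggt

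RefSeq promoters were listed for 37 of the 44 members, 48 sequences in all, and not for UVRAG, MAP1LC3A, CTSB, HEXA, ATP6V1H, RB1CC1 and LAMP2. TCACGTGA, which contains CACGTG and reads alike on both strands, was found in 6 of the 48 (12.5%), against 0.980% of all 35116 listed promoters of the same length. The 6 genes were GAA, MCOLN1, LAMP1, ATP6V0D1, CTSA and ATG3, of which GAA and MCOLN1 held the full 10-base CLEAR element (0.353% of all promoters). CACGTG alone was also in the promoters of NEU1, CTSD and ATG14, which makes 9 of the 48 (18.8%, against 7.26%). The C/EBP-ATF element TGATGNAA, searched on both strands, was in none of the 48 and in 3.62% of all promoters. LAMP1 held 6 copies of CACGTG, the most of the printed windows. The capitals are all in the second set of sequences, and no motif searched lay in the printed windows of WIPI1, MAP1LC3B and SQSTM1. Only exact matches to these motifs were searched. Near matches, such as gtcacctgac in the MAP1LC3B window, and E-boxes with other central bases were not counted.

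Metformin-treated cells had more transcript of every cargo receptor on the list, of the ULK1 complex and of WIPI1 and MAP1LC3B. Lysosomal enzymes moved both ways and TFEB was lower. The rises of the receptor CALCOCO2 and of ATG13 in the ULK1 complex were small, and their calls were lost under several alternatives to the fit. TFEB averaged under 1 FPKM and was called lower only with a lowered filter or none. Of the 44 members, 40 averaged 1 FPKM or more across the 6 libraries and were tested. At an adjusted p below 0.05 (limma, Benjamini-Hochberg over all 13437 tested genes), 21 were higher and 6 lower. Among all tested genes 31.0% were higher and 25.2% lower, 56.2% in either direction, so the 67.5% called among the tested members lies in a comparison where most genes moved. These shares also stand beside the counts of each class and list below. The median log2 change was 0.22 over the tested members and 0.06 over all tested genes. A called rise of at least 0.5 on that scale was seen in 11 members, against 18.9% of tested genes, and a called fall of that size in 1, against 15.0%. In 24 of the 40 tested members every metformin value lay above every PBS value, and in 6 every one lay below. The same was seen in 35.7% and 28.7% of tested genes, 64.4% in either direction.

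**Figure D1:**
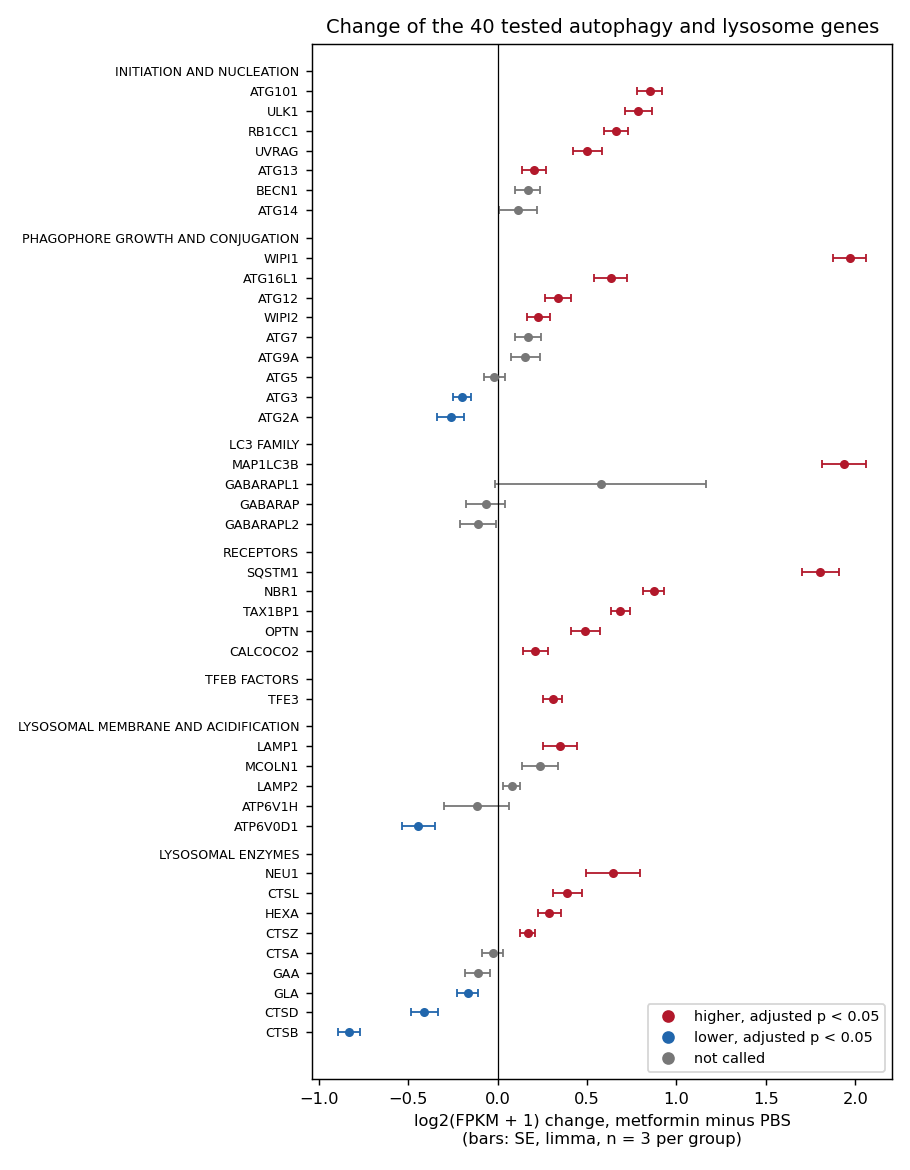
Change of the 40 tested members on the log2(FPKM + 1) scale, metformin minus PBS, with the limma SE (n = 3 per group), grouped by role. Red points were called higher (21), blue ones lower (6) and grey ones were not called. WIPI1, MAP1LC3B and SQSTM1 lie near 2, apart from the other members, and CTSB has the lowest value.

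From the steps between low FPKM values, between 7810000 and 8820000 fragments were estimated per library, with no group deeper throughout. The search covered a preset range of depths, so a depth outside that range would not have been found. The 9 squamous epithelial markers, among them KRT5, TP63, SFN, CDH1 and EPCAM, were all above the level filter and summed to 1292 to 1371 FPKM with PBS and 752 to 775 with metformin. These sums do not overlap: the keratins KRT5, KRT14 and KRT6A were lower with metformin (355 to 52.4, 246 to 12.9 and 108 to 46.8 FPKM). KRT17 (129 to 106) and TP63 (17.5 to 13.1) were also called lower, while DSG3, EPCAM and CDH1 were called higher and SFN was not called. Of the immune markers, PTPRC and CD3E were below 0.34 FPKM in every library, CD14 was lower with metformin (3.71 to 0.942) and CD68 higher (2.15 to 3.33). The 4 fibroblast markers summed to 1.50 to 2.04 and 2.33 to 2.74 FPKM, most of it COL1A1, which was called higher. The 3 endothelial markers summed to 5.93 to 6.87 and 2.01 to 2.32 FPKM, nearly all of it CDH5, which was called lower, while PECAM1 and VWF stayed below 0.16. The part of these markers in the results below was not tested. Fewer cells and less RNA per cell cannot be told apart in such samples.

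Among the 8 initiation and nucleation genes, 5 of the 7 tested were higher and 0 lower, and their median log2 change was 0.50. ULK1 and its partners ATG13, ATG101 and RB1CC1 were among the 5. ULK1, the kinase itself, had 5.47, 4.66 and 4.77 FPKM with PBS and 9.03, 9.57 and 9.24 with metformin. It rose 1.87-fold, from 4.96 ± 0.438 to 9.28 ± 0.275 (log2 change 0.79, SE 0.08, limma adjusted p = 0.000194), and no metformin value came near the PBS range. ATG101, a small subunit that binds and steadies ATG13, had 12.1, 11.2 and 10.7 FPKM with PBS and 21.6, 22.3 and 19.9 with metformin. It rose by the same 1.87-fold (log2 change 0.85, SE 0.07, limma adjusted p = 0.000109). ATG101 shares 19.2% of its exonic bases with AC025259.1, an antisense gene that had 15.7 FPKM with PBS and 32.9 with metformin, and fragments of the 2 cannot be told apart without strand.

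RB1CC1, which encodes the scaffold FIP200, had 10.8, 11.2 and 10.3 FPKM with PBS and 18.8, 16.9 and 17.0 with metformin. The groups were apart and the rise was 1.64-fold (log2 change 0.66, SE 0.07, limma adjusted p = 0.000245). ATG13, the adaptor between kinase and scaffold, moved far less, from 10.4 ± 0.520 to 12.2 ± 0.580 FPKM (log2 change 0.20, limma adjusted p = 0.0355). That call was lost without PBS library 2 or 3 or metformin library 1 or 3, where the adjusted p reached 0.106. Median-of-ratios scaling and quantile normalization lost it too (limma adjusted p = 0.0929 and 0.0608). ULK2, the paralogue of ULK1, was listed at or below 0.118 FPKM in every library and was not tested.

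In the lipid kinase complex, 1 of the 3 listed members was called. UVRAG, a subunit linked to autophagosome and endosome maturation, had 5.34, 4.51 and 4.95 FPKM with PBS and 7.94, 7.08 and 7.17 with metformin, a rise of 1.50-fold (log2 change 0.50, SE 0.08, limma adjusted p = 0.00211). BECN1, the core subunit beclin 1, had 11.4 ± 0.733 and 12.9 ± 0.590 FPKM (log2 change 0.17, limma adjusted p = 0.0771), and was called higher only when libraries were rescaled to a fixed FPKM sum (adjusted p = 0.0449). ATG14, which directs the complex to autophagy, had the smallest change of the class. Its values were 3.88, 4.57 and 4.35 with PBS and 5.14, 5.06 and 3.95 with metformin, which overlap (log2 change 0.11, 95% interval -0.14 to 0.37, limma adjusted p = 0.402).

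Of the 9 genes of phagophore growth and conjugation, 4 were higher and 2 lower, and the median log2 change was 0.17. WIPI1 (ENSG00000070540.12, GRCh38 chromosome 17, 68420948 to 68457513), a protein that binds the phosphoinositide made by the BECN1 complex, had 1.43, 1.73 and 1.32 FPKM with PBS. With metformin it had 9.43, 8.34 and 8.47, so that even the lowest treated library was far above the highest control. It rose 5.86-fold (log2 change 1.97, SE 0.09, limma adjusted p = 1.07e-05), the largest log2 change of the tested members. Its paralogue WIPI2, which recruits ATG16L1, had 9.63, 9.52 and 9.46 FPKM with PBS and 10.9, 11.1 and 12.1 with metformin. WIPI2 rose 1.19-fold (log2 change 0.23, limma adjusted p = 0.0181), a call lost without metformin library 3 (adjusted p = 0.0561). WIPI2 was the more abundant of the pair in both groups.

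ATG16L1, which places the LC3 ligase on the membrane, had 3.84, 4.91 and 4.56 FPKM with PBS and 7.10, 7.22 and 7.90 with metformin. The rise of 1.67-fold left a wide gap between the groups (log2 change 0.63, SE 0.09, limma adjusted p = 0.00137). ATG12, the ubiquitin-like partner of ATG5, rose 1.30-fold from 6.15 ± 0.396 to 8.02 ± 0.337 FPKM (log2 change 0.34, limma adjusted p = 0.00650). ATG5 itself had the smallest change of the class, with 7.91, 7.62 and 7.80 FPKM against 7.50, 7.62 and 7.90 (log2 change -0.02, 95% interval -0.16 to 0.12, limma adjusted p = 0.812).

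ATG3, the enzyme that transfers LC3 to lipid, went down from 15.5 ± 0.211 to 13.3 ± 0.0579 FPKM (log2 change -0.20, limma adjusted p = 0.0132). ATG2A, the lipid transfer protein, went down from 7.99 ± 0.499 FPKM with PBS to 6.49 ± 0.405 with metformin (log2 change -0.26, limma adjusted p = 0.0228). The call of ATG2A was lost without PBS library 1 or 2 or metformin library 1, with adjusted p up to 0.0718. ATG7, the activating enzyme, and ATG9A, the membrane scramblase, were not called, with log2 changes of 0.17 and 0.15. ATG9A was called higher without metformin library 2 (adjusted p = 0.0411).

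Within the LC3 and GABARAP family, whose proteins mark the autophagosome and dock receptors, 1 of the 4 tested genes was higher and 0 lower. MAP1LC3B (ENSG00000140941.12, chromosome 16, 87383995 to 87404779), which encodes LC3B, had 6.29, 6.56 and 6.33 FPKM with PBS and 24.2, 25.1 and 33.5 with metformin. The PBS libraries were nearly equal and metformin library 3 was the highest. The rise was 4.32-fold, from 6.39 ± 0.146 to 27.6 ± 5.12 FPKM (log2 change 1.94, SE 0.12, limma adjusted p = 3.41e-05). MAP1LC3B shares 2.82% of its exonic bases with FBXO31 on the other strand (4.07 FPKM with PBS, 5.58 with metformin), and its near copy MAP1LC3B2 had at most 0.736 FPKM. MAP1LC3A was listed at 0 in 5 libraries and at 0.178 in metformin library 2.

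GABARAP had 23.5, 24.6 and 21.9 FPKM with PBS and 24.2, 18.6 and 24.3 with metformin. The ranges overlapped and no change was called (log2 change -0.07, 95% interval -0.33 to 0.20, limma adjusted p = 0.636). AC120057.2, a protein-coding gene on the same strand, shares 30.5% of the exonic bases of GABARAP and had 9.76 FPKM with PBS and 6.34 with metformin. Its metformin values were 9.85, 9.18 and 0, so the lower mean came from library 3. GABARAPL2 had 12.3, 14.0 and 15.3 FPKM against 11.8, 12.4 and 14.1 (log2 change -0.11, 95% interval -0.35 to 0.13, limma adjusted p = 0.385).

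GABARAPL1 was the least steady member. It had 9.15, 3.80 and 5.20 FPKM with PBS and 4.93, 5.46 and 25.1 with metformin, so that its higher metformin mean came from library 3 alone. The log2 change of 0.58 had an SE of 0.59 and was not called (limma adjusted p = 0.439), and without that library it was -0.12.

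The make-up of the family differed between the groups. The summed level of the 5 genes was 51.2, 48.9 and 48.8 FPKM with PBS and 65.1, 61.8 and 97.1 with metformin. MAP1LC3B made up 12.9% ± 0.574 (SD, n = 3) of the sum with PBS and 37.4% ± 3.06 with metformin. GABARAP, the most abundant of the family in the PBS libraries with 47.0% ± 2.83, made up 30.8% ± 6.05 with metformin. In every metformin library MAP1LC3B was above GABARAP in FPKM, in library 1 barely (24.22 against 24.15), and in every PBS library it was below it.

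**Figure D2:**
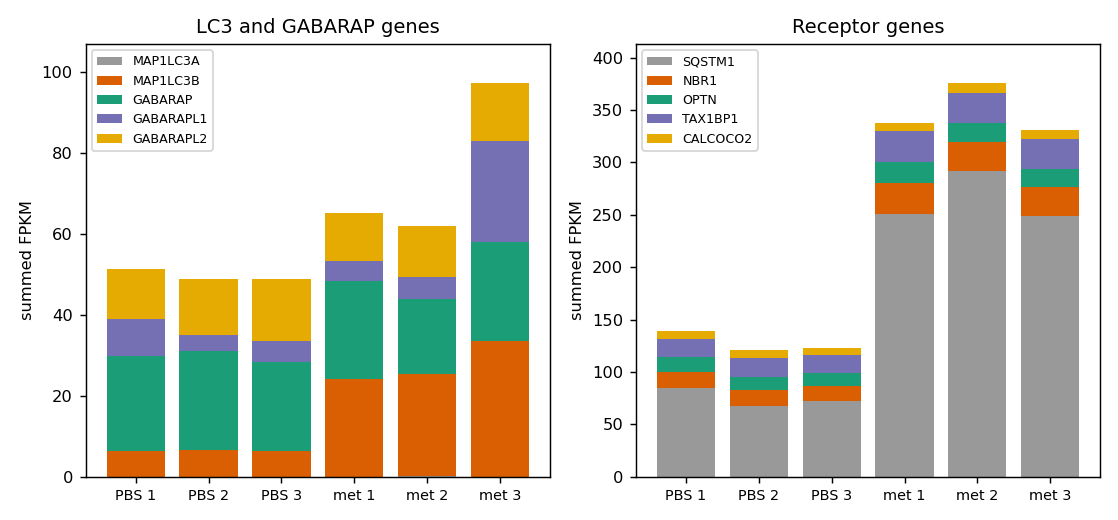
Summed FPKM of the LC3 and GABARAP genes (left) and of the receptor genes (right) in each of the 3 PBS and 3 metformin libraries (met), stacked by gene. The MAP1LC3B part of the left bars grows from 6.29 to 6.56 FPKM with PBS to 24.2 to 33.5 with metformin, and SQSTM1 makes up most of every right bar.

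All 5 cargo receptors were called higher, where 31.0% of all tested genes were, with a median log2 change of 0.69. A list of organelle receptors and related genes, given below, gave 3 higher and 4 lower of 15. It is not made up of receptors alone, as it includes the kinases PINK1 and TBK1. SQSTM1 (ENSG00000161011.19, chromosome 5, 179806398 to 179838078), which gathers ubiquitin-tagged proteins, had 85.0, 67.3 and 72.3 FPKM with PBS and 250.3, 292 and 248 with metformin. It rose 3.52-fold, from 74.9 ± 9.10 to 264 ± 24.7 (log2 change 1.81, SE 0.10, limma adjusted p = 2.28e-05). It ranked 3 by mean level among the 44 members with PBS, after CTSB and CTSD, and 1 with metformin. SQSTM1 shares 20.7% of its exonic bases with MRNIP on the other strand (17.8 FPKM with PBS, 53.6 with metformin), and their fragments cannot be told apart without strand.

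NBR1, a receptor related in build to SQSTM1, had 15.2, 15.6 and 14.6 FPKM with PBS and 30.1, 27.7 and 27.8 with metformin. It rose 1.89-fold with a clear gap between groups (log2 change 0.87, SE 0.06, limma adjusted p = 4.18e-05). TAX1BP1, a receptor for ubiquitin-tagged aggregates, had 17.5, 18.3 and 17.0 against 29.4, 29.1 and 28.4 FPKM. The rise of 1.64-fold was far larger than the spread within either group (log2 change 0.69, SE 0.05, limma adjusted p = 7.37e-05).

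OPTN, the receptor optineurin of mitophagy and bacterial autophagy, had 14.0, 12.0 and 12.2 FPKM with PBS and 19.8, 17.3 and 17.8 with metformin (1.44-fold, log2 change 0.49, limma adjusted p = 0.00245). CALCOCO2, the receptor NDP52, had 7.31, 7.78 and 7.09 against 8.34, 9.20 and 8.62 FPKM. Its rise of 1.18-fold was the smallest of the class (log2 change 0.21, limma adjusted p = 0.0337). The call was lost without PBS library 1 or 3 or metformin library 2 or 3 (adjusted p up to 0.0992). It was also lost with median-of-ratios scaling and with quantile normalization (limma adjusted p = 0.0898 and 0.0961). As SQSTM1 rose most, its part of the summed receptor level went from 58.5% ± 2.77 to 75.6% ± 1.95, while the part of each other receptor was lower although its level was higher. The sum was 128 ± 9.79 FPKM with PBS and 348 ± 23.8 with metformin.

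**Figure D3:**
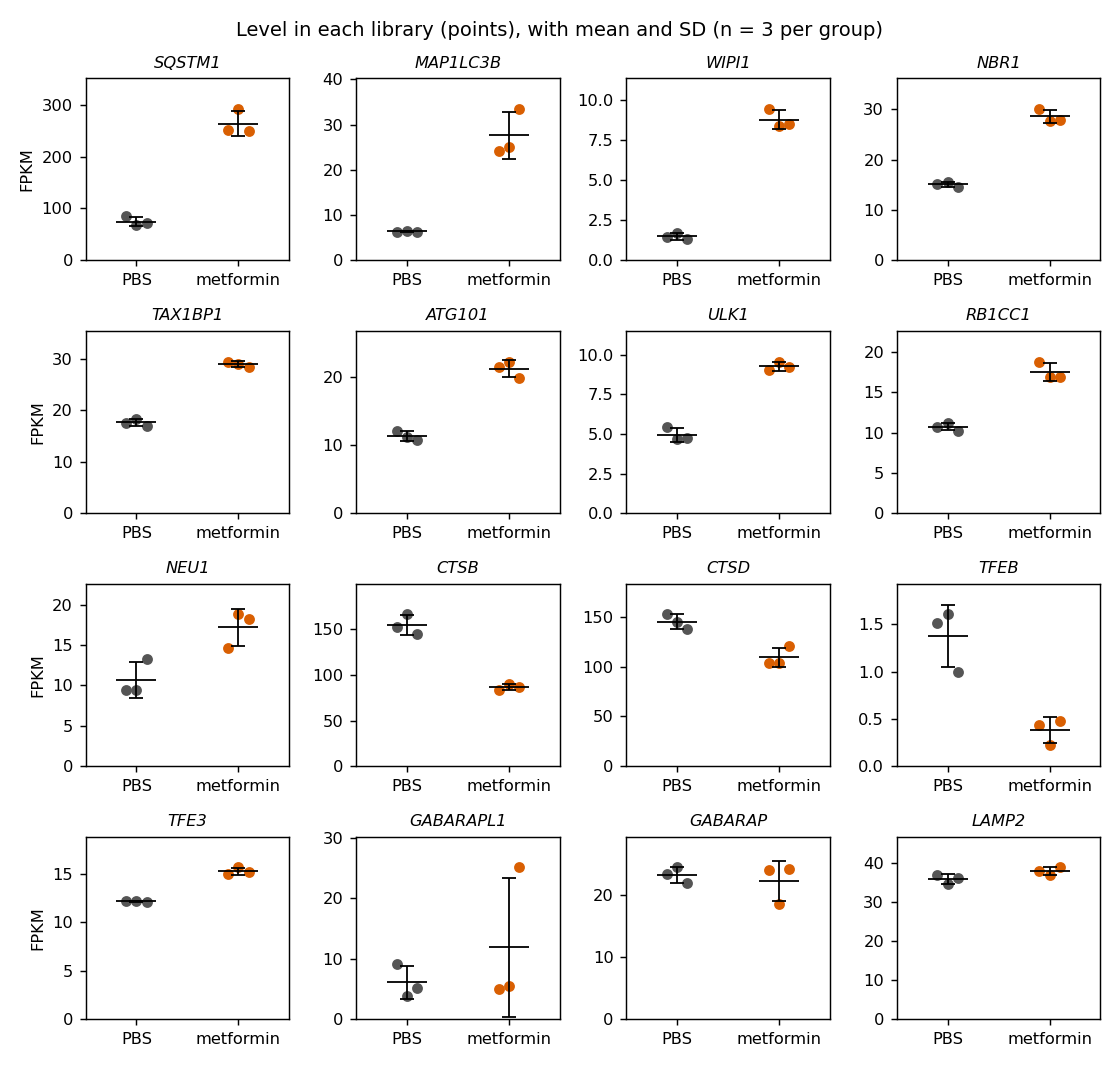
FPKM of 16 members in each library (points), with mean and SD (bars, n = 3 per group), each panel on its own scale from 0. The metformin points lie above all PBS points in the first 9 panels and for TFE3, below them for CTSB, CTSD and TFEB, and overlap them for GABARAPL1, GABARAP and LAMP2.

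The 3 TFEB factors, which raise lysosomal and autophagy genes, differed in level and in direction. TFE3 was the main one, with 12.2, 12.2 and 12.1 FPKM in PBS and 15.0, 15.7 and 15.2 with metformin. It rose 1.26-fold (log2 change 0.31, SE 0.05, limma adjusted p = 0.00247). TFEB (ENSG00000112561.17, chromosome 6, 41683978 to 41736259) had 1.52, 1.60 and 1.00 FPKM with PBS and 0.438, 0.220 and 0.481 with metformin. All its metformin values lay below all PBS values, with means 3.62-fold apart, 1.37 ± 0.327 and 0.380 ± 0.140.

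TFEB averaged under 1 FPKM and so was not among the tested genes. When the filter was lowered to 0.1 FPKM, TFEB was called lower (log2 change -0.78, SE 0.14, limma adjusted p = 0.00511), and likewise with no filter (adjusted p = 0.0123). MITF had 0.320, 0.239 and 0.141 FPKM with PBS and 0.316, 0.439 and 0.457 with metformin, ranges that overlap, and was not called with the lower filter (adjusted p = 0.170). TFE3 made up 88.4% ± 2.62 of the summed level of the 3 genes with PBS and 95.1% ± 0.896 with metformin, and TFEB 9.94% ± 2.10 and 2.37% ± 0.893.

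Genes of the lysosomal membrane and of acidification gave 1 higher and 1 lower of 5, with a median log2 change of 0.08. LAMP1, a main glycoprotein of the lysosomal membrane, rose 1.28-fold from 50.5 ± 3.21 to 64.8 ± 7.83 FPKM (log2 change 0.35, limma adjusted p = 0.0171). The call was lost without PBS library 1 or PBS library 3 (adjusted p up to 0.0540). LAMP2, its relative and a receptor of chaperone-mediated autophagy, had 37.0, 34.6 and 36.1 FPKM with PBS and 38.0, 36.9 and 38.9 with metformin. The ranges overlap slightly and the change was the smallest of the class (log2 change 0.08, 95% interval -0.04 to 0.20, limma adjusted p = 0.227).

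ATP6V0D1, a subunit of the proton pump that acidifies the lysosome, fell 1.44-fold from 6.25 ± 0.461 to 4.34 ± 0.485 FPKM (log2 change -0.44, limma adjusted p = 0.00635). ATP6V1H, a subunit of the soluble part of the pump, was not called (log2 change -0.12, limma adjusted p = 0.609). MCOLN1, the lysosomal calcium channel, had 3.84 ± 0.173 and 4.73 ± 0.667 FPKM (log2 change 0.24, limma adjusted p = 0.0860). It was called higher without metformin library 2 (adjusted p = 0.0314).

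Lysosomal enzymes moved both ways, with 4 of 9 higher, 3 lower and a median log2 change of -0.03. Tested genes as a whole also did, with 31.0% higher and 25.2% lower. The 2 most abundant members with PBS were cathepsins, and both fell. CTSB, a cysteine protease, had 153, 166 and 145 FPKM with PBS and 83.3, 89.7 and 86.5 with metformin. It fell 1.79-fold (log2 change -0.83, SE 0.06, limma adjusted p = 6.5e-05), the largest fall of the tested members. CTSD, the main aspartic protease of the lysosome, fell 1.33-fold from 145 ± 7.26 to 109 ± 9.79 FPKM (log2 change -0.41, limma adjusted p = 0.00319). CTSD shares 41.7% of its exonic bases with AC068580.4 on the same strand (0.288 FPKM with PBS, 3.75 with metformin), and how fragments of the shared bases were divided was not tested.

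CTSL, another cysteine protease, moved the other way, from 22.4 ± 0.524 to 29.7 ± 3.32 FPKM (1.33-fold, log2 change 0.39, limma adjusted p = 0.00665). CTSZ, an exopeptidase, rose 1.12-fold (log2 change 0.17, limma adjusted p = 0.0143). CTSA, which protects NEU1 and the galactosidase GLB1 in the lysosome, had the smallest change of the enzymes, with 18.8, 19.2 and 17.8 FPKM against 19.0, 18.2 and 17.5 (log2 change -0.03, 95% interval -0.17 to 0.11, limma adjusted p = 0.701). The 5 cathepsins summed to 398 ± 17.4 FPKM with PBS and 308 ± 6.74 with metformin. CTSB made up 38.8% ± 1.34 of the sum with PBS and 28.1% ± 1.22 with metformin, and CTSL 5.62% ± 0.148 and 9.66% ± 1.23.

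Of the glycosidases, NEU1, the lysosomal sialidase, had 9.41, 9.41 and 13.3 FPKM with PBS and 14.6, 18.8 and 18.1 with metformin. PBS library 3 lay close to the lowest metformin value, and the rise was 1.61-fold (log2 change 0.64, SE 0.15, limma adjusted p = 0.0104). HEXA, a subunit of beta-hexosaminidase, rose 1.26-fold (log2 change 0.29, limma adjusted p = 0.00896). GLA, alpha-galactosidase A, fell 1.13-fold (log2 change -0.17, limma adjusted p = 0.0442), a call lost when any 1 library other than metformin library 2 was left out (adjusted p up to 0.126). GAA, the alpha-glucosidase that breaks down glycogen, had 20.6 ± 1.64 and 19.0 ± 0.626 FPKM (log2 change -0.11, limma adjusted p = 0.220).

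Set against the promoters shown above, the 6 members with TCACGTGA gave 1 higher, 2 lower and 3 not called, with log2 changes from -0.44 (ATP6V0D1) to 0.35 (LAMP1). Of the 28 other tested members with a listed promoter, 17 were higher and 3 lower, with log2 changes from -0.41 (CTSD) to 1.97 (WIPI1). Their median was 0.27, and that of the 6 was -0.07. Of all tested genes, 31.0% were higher and 25.2% lower. Tested members without a listed promoter, CTSB among them, are in neither group. Apart from ATG3, the 6 members with TCACGTGA are lysosomal genes, while most of the 28 belong to the autophagy classes. Motif and class therefore cannot be told apart here. GAA, with 2 copies of the full element, and MCOLN1, with 1, were both not called. These are descriptions of 300-base windows. Binding of a factor was not measured, and whether the motif bears on the changes was not tested.

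**Figure D4:**
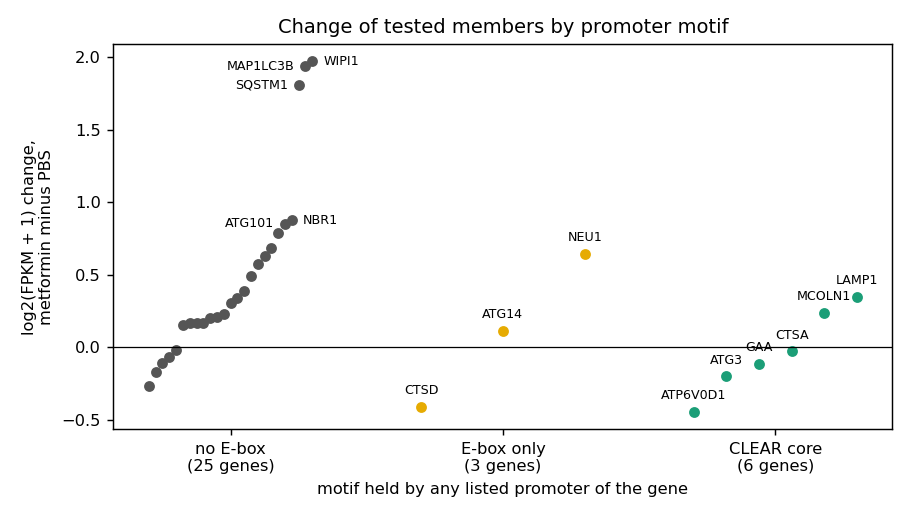
Change of the 34 tested members that have a listed promoter, on the log2(FPKM + 1) scale, by the motif held in any of their promoters: no E-box CACGTG (25 genes), CACGTG without the CLEAR flanks (3) or the CLEAR core TCACGTGA (6). Points are genes, spread sideways by value. The 6 genes with the core lie between -0.44 and 0.35, and the members near 2 have no exact CACGTG in these windows.

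Paralogues were also compared as ratios within a library. The log2 ratio of WIPI1 to WIPI2, on FPKM + 1, was -2.13, -1.95 and -2.17 with PBS and -0.19, -0.37 and -0.47 with metformin, a difference of 1.74 (2.31 with no pseudocount). That of TFEB to TFE3 differed by -1.09 (-2.24 with no pseudocount, since TFEB lay near or below the added 1). In both pairs the groups did not overlap, and each gave p = 0.1 in a two-sided exact permutation test, the smallest that 3 libraries against 3 allow (0.175 adjusted over the 7 pairs compared). For MAP1LC3B to MAP1LC3A and ULK1 to ULK2 the denominator is at or near 0, so on this scale the differences of 1.86 and 0.72 restate the changes of MAP1LC3B and ULK1. GABARAPL1 to GABARAPL2 (difference 0.69, exact permutation p = 0.5), MITF to TFE3 (-0.12, exact p = 0.2) and LAMP2 to LAMP1 (-0.27, exact p = 0.2) overlapped between the groups.

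A further 128 genes of the pathway, listed by textbook role, moved in both directions. Of the 118 tested, 42 were higher and 28 lower, 59.3% in all, close to the 56.2% of all tested genes. Other autophagy machinery gave 11 higher and 2 lower of 23, led by NRBF2, a partner of ATG14 in the lipid kinase complex, from 11.1 ± 0.316 to 28.4 ± 1.24 FPKM, and ZFYVE1 (2.18-fold). VAMP8, a SNARE of autophagosome fusion, and PIK3R4, a lipid kinase subunit, fell 1.55-fold and 1.30-fold. The list of organelle receptors and related genes gave 3 higher and 4 lower of 15, the higher ones being CCPG1, PINK1 and WDFY3. CCPG1, a receptor for the endoplasmic reticulum, rose 6.63-fold from 2.81 ± 0.743 to 18.6 ± 7.79 FPKM (metformin values 19.2, 10.6 and 26.1), and PINK1, the mitophagy kinase, 1.45-fold. The mitophagy receptors BNIP3 and FKBP8 fell 2.77-fold, from 25.4 ± 1.98 FPKM, and 1.77-fold.

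Genes that gate TFEB gave 3 higher and 3 lower of 9, with FLCN and RRAGC 1.81-fold and 1.68-fold higher. PPP3CB and PPP3R1, subunits of the phosphatase calcineurin, were 1.38-fold and 1.17-fold lower, the latter a call lost when 1 of 4 libraries was left out (adjusted p up to 0.131). Other lysosomal membrane genes gave 10 higher and 2 lower of 14. LAMP3 rose 7.22-fold from 14.4 ± 1.98 to 104 ± 3.81 FPKM, and NPC1, the cholesterol exporter, 2.26-fold. The channel genes TPCN2 and TMEM175 fell 2.88-fold and 1.83-fold, both from under 1.6 FPKM, and TMEM175 lost its call without 1 of 4 libraries (adjusted p up to 0.0810). The proton pump gave 7 higher and 3 lower of 15, with ATP6V0A2 1.81-fold and ATP6V0B 1.38-fold higher and ATP6V0E2 2.23-fold and ATP6V1A 1.78-fold lower.

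Other lysosomal hydrolases and their activators gave 7 higher and 13 lower of 35. PSAP, the precursor of the saposins, rose 2.50-fold from 180.0 ± 3.49 to 449.6 ± 7.41 FPKM, and TPP1, a peptidase, 2.24-fold. CTSC, another cathepsin, and GM2A, the activator of ganglioside breakdown, fell 2.71-fold and 2.42-fold. Genes of enzyme sorting gave 1 higher and 1 lower of 7. IGF2R, the large mannose 6-phosphate receptor, rose 2.67-fold to 63.7 ± 0.991 FPKM, and GNPTAB, which makes the mannose 6-phosphate tag, fell 2.11-fold.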

How the data were processed

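Each library came as a table of genes with an FPKM value deposited for every gene, and the build is GRCh38, per the submitters' processing notes. Not given in the sources used here are the aligner, the quantifier with its strand setting, and the gene annotation release. Symbols and coordinates came from GENCODE release 29 by identifier without version, which named 57980 of 58243 genes. A listed 0 is not read as absence, since all 37 genes of the mitochondrial genome are at 0 throughout.

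The 13437 genes that averaged 1 FPKM or more were fitted as log2(FPKM + 1) with limma 3.58.1 in R 4.3.3 (intensity trend, group as the only term). The test is two-sided, with Benjamini-Hochberg adjustment over these genes and a threshold of 0.05. The members, the other lists and the motifs were chosen with earlier results of these data known. Members called with a log2 change of at least 0.5, all LC3, receptor and TFEB genes and the least changed member of each other class are given by library. Of each other list, the 2 largest called rises and falls are named. Exon overlaps were computed with BEDTools 2.31.1. Of the members, 15 share exon bases with a gene averaging at least 1 FPKM, 7 of them 10% or more. These 7 are SQSTM1, ATG101, CTSD, GABARAP, ATG7, BECN1 and HEXA. On the other strand, ATG7 shares 18.1% with VGLL4 (5.00 FPKM with PBS, 7.71 with metformin). BECN1 shares 12.4% with CNTD1 (4.89 and 5.14) and HEXA 10.1% with AC009690.2 (1.15 and 1.17). Python 3.11.15, pandas 2.3.3, NumPy 2.4.6 and SciPy 1.17.1 were used otherwise. One immune marker is not reported here.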

Additional observations from a re-analysis of the deposited data

How the results depend on the processing

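Of the 27 member calls, 18 held under each of the 19 alternatives to the fit that tested the gene (other pseudocounts, filters, scalings and priors, protein-coding genes alone, a replicate block, libraries left out) and none changed sign. Those lost under at least 1 were ATG13, WIPI2, ATG2A, ATG3, CALCOCO2, LAMP1, CTSZ, GLA and HEXA, and the cause was not tested. BECN1, ATG9A, LAMP2 and MCOLN1 were called under 1 alternative each. The members called higher numbered 16 to 22 and those lower 4 to 7. Leaving out 1 library gave 18 to 22 and 4 to 6, and leaving out both libraries numbered 3 gave 16 and 4. Median-of-ratios scaling gave 17 higher and 6 lower. Without the 7 members that share 10% or more of their exonic bases, a choice made after seeing the data, 18 were higher and 5 lower. With a filter of 5 FPKM, 2401 genes were higher, since 7388 were tested. The MITF to TFE3 ratio reversed to 0.52 without a pseudocount, as MITF lay below 0.5 FPKM, and that of TFEB to TFE3 went from -1.09 to -2.24 and of WIPI1 to WIPI2 from 1.74 to 2.31. That setting gave no value for the pairs with ULK2 or MAP1LC3A, which are listed at 0 in some libraries.

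Libraries with the same number were not paired by the labels. Their deviations from the group means correlated at -0.01 to 0.03 across genes, and those of differently numbered libraries at -0.05 to 0.04. Whether same-numbered libraries were prepared together cannot be told from these values. With the replicate block, 20 members were higher and 4 lower, and CALCOCO2, ATG2A and GLA lost their calls (adjusted p = 0.0520, 0.0555 and 0.0738).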
